A study of Mus musculus with 6 samples.

Results

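Levels of 10 S100 genes were read in A316 cells, a mouse cell line that the labels call a primary adenocarcinoma line with C/EBP alpha knocked out. The genes were S100a1, S100a3, S100a4, S100a5, S100a6, S100a8, S100a9, S100a10, S100a13 and S100a16, and they stand among 19937 named genes of the array and 17 measured genes of the S100 family. Cells of both groups carried the knockout. PTC-209, which the labels describe as inhibiting Bmi, was applied in 0.5% DMSO for 3 arrays, and 0.5% DMSO alone was applied for the other 3. The series title places the comparison in pulmonary adenocarcinoma with low C/EBP alpha and targeted Bmi1, a Polycomb protein. The sources used here give no dose and no exposure time. All values come from a single line. Since the labels do not state that replicates were grown separately, p-values reflect the spread among these arrays alone, and that spread may be technical.

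Each gene was read by the probe set chosen by the highest mean over all 6 arrays among the probe sets annotated to that gene alone. Every one of the 10 genes had exactly 1 such probe set, so this choice discarded nothing. The family was singled out with the low level of S100a4 under PTC-209 already known. The difference of S100a4 is therefore given as a description with no p, and shares of the 10 genes support nothing by themselves.

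S100 proteins are small calcium sensors that carry a pair of EF-hand motifs, helix-loop-helix folds that bind calcium. Most act as dimers, and calcium opens a face that docks onto partner proteins such as annexins and myosin. Some also leave the cell and act as danger signals on receptors such as RAGE and TLR4. S100A4 is known as metastasin and as fibroblast-specific protein, and S100A8 with S100A9 is an abundant calcium-binding protein of neutrophils. In mouse, most genes of the family lie side by side in a cluster.

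The windows before the transcription starts of S100a4 and S100a6 are shown because these genes stand near each other in that cluster and differed in size of response, and the stretch between S100a1 and S100a13 because these neighbours start in opposite directions. The sequences are RefSeq's, on build GRCm38.p6, plus strand, from chr3:90603520-90603769, chr3:90612644-90612893 and chr3:90514331-90514434. Capitals mark TATAAA.
S100a4: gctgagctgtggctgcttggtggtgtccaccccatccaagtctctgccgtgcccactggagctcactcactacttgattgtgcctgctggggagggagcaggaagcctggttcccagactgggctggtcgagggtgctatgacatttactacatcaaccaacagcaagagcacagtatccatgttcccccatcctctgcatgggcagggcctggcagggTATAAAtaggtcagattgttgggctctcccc
S100a6: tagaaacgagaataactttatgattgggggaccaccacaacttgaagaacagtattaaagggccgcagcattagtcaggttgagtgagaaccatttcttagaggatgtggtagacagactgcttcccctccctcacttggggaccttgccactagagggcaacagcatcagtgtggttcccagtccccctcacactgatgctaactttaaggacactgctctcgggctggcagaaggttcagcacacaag
S100a1 to S100a13: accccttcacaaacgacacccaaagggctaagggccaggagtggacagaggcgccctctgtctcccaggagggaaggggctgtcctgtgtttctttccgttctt
The first pair each hold the 250 bases before the start, and the last holds the 104 bases between the starts of S100a1, which runs on the minus strand, and S100a13. Of the 10 genes, 9 had a window in the RefSeq table, S100a3 with 4 starts and S100a16 with 2. Both strands of the windows were searched for the TATA box letters TATAAA, the AP-1 letters TGANTCA, the C/EBP letters TTGCNNAA, the E-box letters CACGTG and an NF-kB motif. TATAAA lay 31 bases before the start of S100a4, 30 before that of S100a8 and 52 before 1 of the starts of S100a3. Among all 32851 windows, 12.4% held it. Shares over all windows are counted per window, so a gene with several starts had more chances of a match. S100a9 held the C/EBP letters once (9.56% of all windows) and S100a16 the AP-1 letters once (6.75%), and none of the 9 genes held the NF-kB motif (4.65%) or the E-box letters (6.02%). A match describes letters and not a binding site, and no match says only that the letters are not in that window.

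Of the 10 S100 genes, 5 were lower with PTC-209, 5 did not pass the threshold and 0 were higher. The lower genes were S100a4, S100a3, S100a13, S100a1 and S100a16. Log2 values were fitted with limma, and a gene passed at an adjusted p under 0.05 (Benjamini-Hochberg, 28192 probe sets). Over all named genes, the same rule found 13.7% lower and 12.9% higher. All PTC-209 arrays lay below all DMSO arrays for 6 of the 10 genes, against 19.4% of all named genes. The median log2 difference of the 10 genes was -0.56, against 0.03 over all named genes. The family was chosen with the fall of S100a4 known, and these counts and this median include S100a4. Set beside all named genes, they are description only. At an unadjusted p under 0.05 in the same limma fit, S100a9 was the only member that was higher (adjusted p = 0.104). On the lower side, that looser threshold added S100a10 (adjusted p = 0.0636). Levels are given as log2 expression of single arrays or as their mean ± SD (n = 3), and differences as PTC-209 minus DMSO.

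S100a4 binds the heavy chain of non-muscle myosin and is studied for its part in cell motility and metastasis. Its log2 level was 6.60, 6.71 and 7.0 on the PTC-209 arrays, against 11.18, 11.74 and 11.64 on the DMSO arrays. The groups did not overlap and lay far apart beside the spread within either. The mean was 6.77 ± 0.20 with PTC-209 and 11.52 ± 0.30 with DMSO, a log2 difference of -4.75 (SE 0.16, 95% confidence interval -5.12 to -4.39). This is a 26.9-fold lower level (20.9 to 34.7), or 3.71% of the DMSO level. By size it ranked 2 among the 2741 genes that were lower. The gene was named with this fall known, so its rank and the gap between its groups are description only. The PTC-209 mean lay above 4.33, the median brightness of the probe sets, and so did each of the 3 PTC-209 arrays. Over the 16 alternative settings the difference lay between -4.92 and -4.64.

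S100a3, known from the hair follicle cuticle, was the gene with the next lower difference. It stood at 6.64, 6.24 and 6.39 on the PTC-209 arrays and at 8.33, 8.52 and 8.38 on the DMSO arrays. The highest PTC-209 array lay well under the lowest DMSO array. S100a3 fell 3.96-fold (3.28 to 4.78; log2 difference -1.98, SE 0.12, limma adjusted p = 3.22e-06) and kept 25.3% of its DMSO level. By size it ranked 209 among the lower genes.

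S100a1 and S100a13 are neighbours with starts on opposite strands, and their differences were nearly equal. S100a13, which takes part in the release of FGF1 and interleukin-1 alpha without a signal peptide, read 6.18, 6.27 and 6.48 with PTC-209, against 7.40, 7.22 and 7.34 with DMSO. It fell 2.01-fold (1.69 to 2.39; log2 difference -1.01, SE 0.11, limma adjusted p = 0.000128). S100a1, a calcium sensor best known from heart and skeletal muscle, read 5.90, 5.95 and 5.92 with PTC-209, against 7.13, 6.80 and 6.72 with DMSO. It fell 1.95-fold (1.62 to 2.35; log2 difference -0.96, SE 0.12, limma adjusted p = 0.000279). For both genes the groups did not overlap, and the PTC-209 arrays of S100a1 lay within 0.05 of each other.

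S100a16, a widely expressed family member, had the smallest fall of those past the threshold. Its arrays read 7.54, 7.41 and 7.61 with PTC-209 and 8.32, 8.36 and 8.19 with DMSO, again without overlap. The level was 1.70-fold lower (1.46 to 1.99; log2 difference -0.77, SE 0.10, limma adjusted p = 0.000387). The calls of S100a1, S100a3, S100a13 and S100a16 held under each of the 16 alternative settings that were run, with adjusted p of at most 0.00435.

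S100a6, or calcyclin, is a marker of proliferating cells that binds annexins and the calcyclin-binding protein Cacybp. Its bright signal was 11.92, 12.00 and 12.03 on the PTC-209 arrays, against 11.92, 12.32 and 12.30 on the DMSO arrays. DMSO replicate 1 sat at the level of the PTC-209 arrays, so the groups overlapped. The log2 difference was -0.19 (95% confidence interval -0.47 to 0.08, limma adjusted p = 0.331). Without DMSO replicate 1 it was -0.32 and passed (adjusted p = 0.042), as it did with cyclic loess (-0.32, adjusted p = 0.0421). DMSO replicate 1 also read low for S100a4, by 0.51 against the mean of the other DMSO arrays. It read low as well for S100a2, by 0.46, S100a10, by 0.30, and S100a11, by 0.23. It read high for S100a1, by 0.37, S100a14, by 0.35, S100a5, by 0.29, and S100a9, by 0.22. Across the 774 probe sets with a mean of 10 or more, the median of that gap was -0.10.

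S100a10, which does not bind calcium and forms a complex with annexin A2, also gave a bright signal. It read 10.67, 10.86 and 10.86 with PTC-209, against 10.94, 11.25 and 11.23 with DMSO. The groups did not overlap, but the gap between them was narrow. The log2 difference was -0.34 (95% confidence interval -0.60 to -0.08) and missed the threshold (limma adjusted p = 0.0636). It passed under 8 of 16 alternative settings, among them leaving out DMSO replicate 1 (adjusted p = 0.0166) and the replicate number as a block (adjusted p = 0.0313), and the adjusted p ranged from 0.00962 to 0.991. Anxa2 itself, the partner, was lower, at 10.59 with PTC-209 and 10.99 with DMSO (log2 difference -0.39, SE 0.092, limma adjusted p = 0.0112). That call was lost when a fold above 1.2 was required (adjusted p = 0.468), and Anxa2 was picked out here after its value was seen.

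S100a8, S100a9 and S100a5 lay under the median brightness of 4.33 in both groups. S100a8 and S100a9 together form calprotectin, which sequesters metal ions and signals through TLR4. S100a8 read 2.79, 2.78 and 2.69 with PTC-209, against 2.86, 2.63 and 2.70 with DMSO, with overlapping groups (log2 difference 0.02, interval -0.20 to 0.25, limma adjusted p = 0.91). S100a9 read 3.37, 3.46 and 3.58 with PTC-209, against 3.34, 3.07 and 3.17 with DMSO. Its PTC-209 arrays all lay above the DMSO arrays by a small margin, and the difference of 0.28 (interval 0.03 to 0.52) did not pass in the limma fit (adjusted p = 0.104). It passed without DMSO replicate 1 (0.35, adjusted p = 0.0484) and with array weights (0.32, adjusted p = 0.0389). S100a5, known from olfactory neurons, read 3.15, 3.13 and 3.28 with PTC-209 and 3.42, 3.12 and 3.13 with DMSO, with overlap (log2 difference -0.04, interval -0.29 to 0.21, limma adjusted p = 0.869). Signals this dim cannot tell a low transcript from none.

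**Figure D1:**
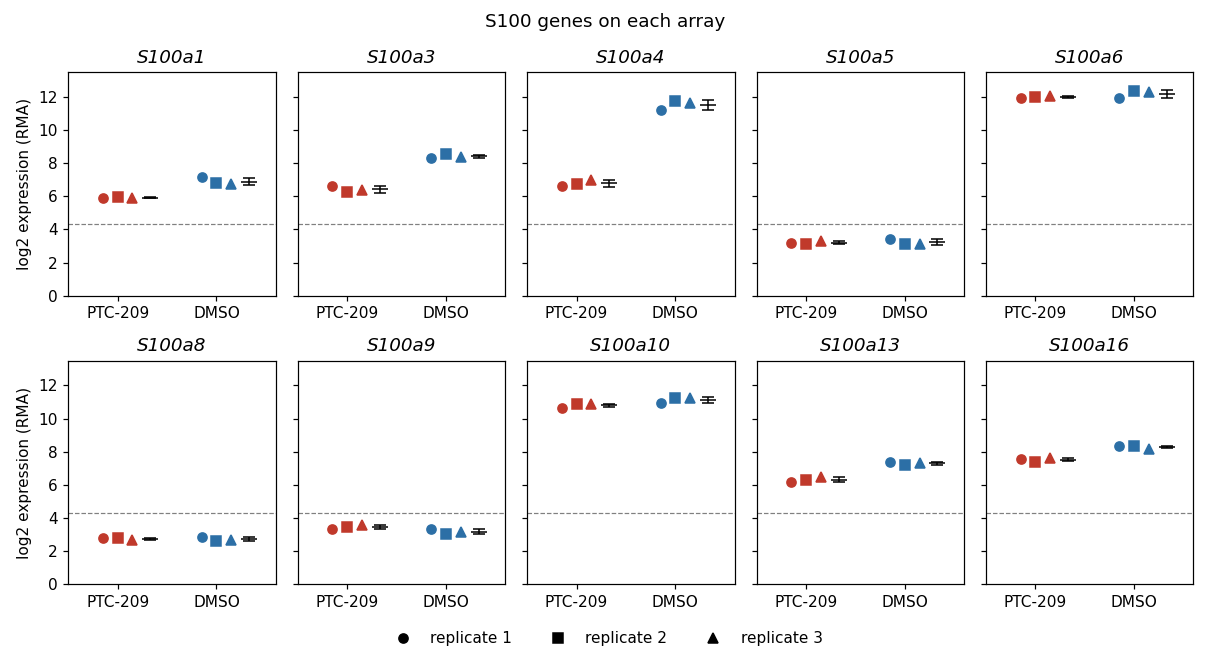
Log2 expression (vertical axis) of the 10 S100 genes on each PTC-209 and DMSO array. Symbols are single arrays, the black bar beside them is the mean ± SD (n = 3), and the dashed line is the median brightness of 4.33. S100a4 stands at 6.60 to 7.0 with PTC-209 and 11.18 to 11.74 with DMSO, while S100a5, S100a8 and S100a9 lie under the line in both groups.

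Markers of cells that make these proteins in tissue were read on the same arrays. All 9 neutrophil markers, Elane and Mpo among them, lay under the median brightness in both groups, and their summed linear level was 79.3 to 94.9 with PTC-209 and 80.4 to 98.8 with DMSO. Of these only Ly6g passed the threshold, at 2.45 with PTC-209 and 3.32 with DMSO (limma adjusted p = 0.0343). The 5 pan-leukocyte markers, Ptprc among them, were also all under it, with sums of 53.9 to 56.7 with PTC-209 and 53.6 to 56.5 with DMSO. Of 6 macrophage markers only Cd68 and Mrc1 exceeded it, and they moved in opposite directions: Cd68 read 10.03 with PTC-209 and 7.42 with DMSO, and Mrc1 read 7.30 with PTC-209 and 9.36 with DMSO. The macrophage sum was 1212 to 1272 with PTC-209 and 812.5 to 895.9 with DMSO. Of 8 fibroblast markers, Col1a1, Col1a2, Col3a1 and Pdgfra exceeded the median brightness, with none past the threshold, and the sum was 148.2 to 154.4 with PTC-209 and 133.5 to 144.1 with DMSO. Of 5 endothelial markers only Cdh5 exceeded it, at 8.15 with PTC-209 and 9.48 with DMSO, and the sum was 273.5 to 356.6 with PTC-209 and 721.3 to 766.9 with DMSO. Over all named genes, 13.7% were lower and 12.9% higher. The part of these marker levels in the S100 differences was not tested.

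All 6 epithelial markers were above the median brightness, and 4 of them, the keratins Krt7, Krt8, Krt18 and Krt19, fell, while Cdh1 rose. Epcam gave -0.29 and did not pass (limma adjusted p = 0.0624). Over all named genes, which are dimmer, 13.7% were lower and 12.9% higher. The sum of the 6 epithelial markers was 5044 to 5747 with PTC-209 and 8904 to 9955 with DMSO. Of 8 lung lineage markers only Sftpa1 and Foxa2 exceeded it, and the lung factor Nkx2-1 read 3.72 with PTC-209 and 3.60 with DMSO. The cells thus carried epithelial markers, while most lung lineage markers, Sftpc and Napsa included, were dim. In bulk RNA, fewer cells of a type and less RNA per cell cannot be told apart. Cebpa, the deleted gene, read 3.79 with PTC-209 and 3.65 with DMSO. Both are dim, but no array without the knockout is analysed here, and where the probes sit relative to the deletion is unknown.

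Beyond the 10 genes, 7 further members of the family had a probe set of their own, and 3 of them fell, where 13.7% of all named genes were lower. S100a14, expressed in epithelia, read 5.15, 5.29 and 5.30 with PTC-209, against 7.13, 6.94 and 6.60 with DMSO, without overlap. It was 3.13-fold lower (2.53 to 3.87; log2 difference -1.64, limma adjusted p = 2.33e-05), a difference between those of S100a3 and S100a13. S100a7a, known from inflamed skin, was 1.63-fold lower (log2 difference -0.71, limma adjusted p = 0.00578), a call lost when a fold above 1.2 was required (adjusted p = 0.0533). Its mean was 5.19 with DMSO and 4.49 with PTC-209, the latter close to the median brightness of 4.33. S100a11, the partner of annexin A1, was 1.35-fold lower (log2 difference -0.43, limma adjusted p = 0.0141), and its second probe set gave -0.50 (adjusted p = 0.0101). The S100a11 call was lost under 4 of 16 alternatives: without DMSO replicate 2 or 3, without PTC-209 replicate 1, and when a fold above 1.2 was required. S100b, S100g and S100z were dim in both groups, with differences of -0.06, -0.11 and 0.05, and S100a2 gave -0.32 (limma adjusted p = 0.237). No member of the measured family was higher in the main limma fit, and at an unadjusted p under 0.05 only S100a9 was.

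By the order of genes in the RefSeq annotation of GRCm38.p6, the cluster runs S100a1, S100a13, S100a14, S100a16, S100a3, S100a2, S100a4, S100a5, S100a6, S100a7a, S100a8 and S100a9, followed by Pglyrp4 and S100a7l2. The first 5 genes all fell, by 0.77 to 1.98 on the log2 scale, where 13.7% of all named genes were lower. This run was cut at 5 after the values were seen, because the next gene, S100a2, did not pass. S100a4 is 7th in this order of the cluster. Of the genes beside it, S100a2 gave -0.32, S100a5 gave -0.04 and S100a6 gave -0.19, none past the threshold. Their 95% confidence intervals had lower ends of -0.70, -0.29 and -0.47. S100a6 was bright in both groups, while S100a5 was under the median brightness in both and S100a2 with PTC-209. Before S100a1, Chtop gave 0.42, Snapin -0.13 and Ilf2 -0.28, none past the threshold. Pglyrp4, between S100a9 and S100a7l2, gave -0.23 and was dim, and S100a7l2 had no probe set of its own. These genes outside the family were picked after their values were seen. S100a11 and S100a10 lie next to each other further along the same chromosome and gave -0.43 and -0.34.

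**Figure D2:**
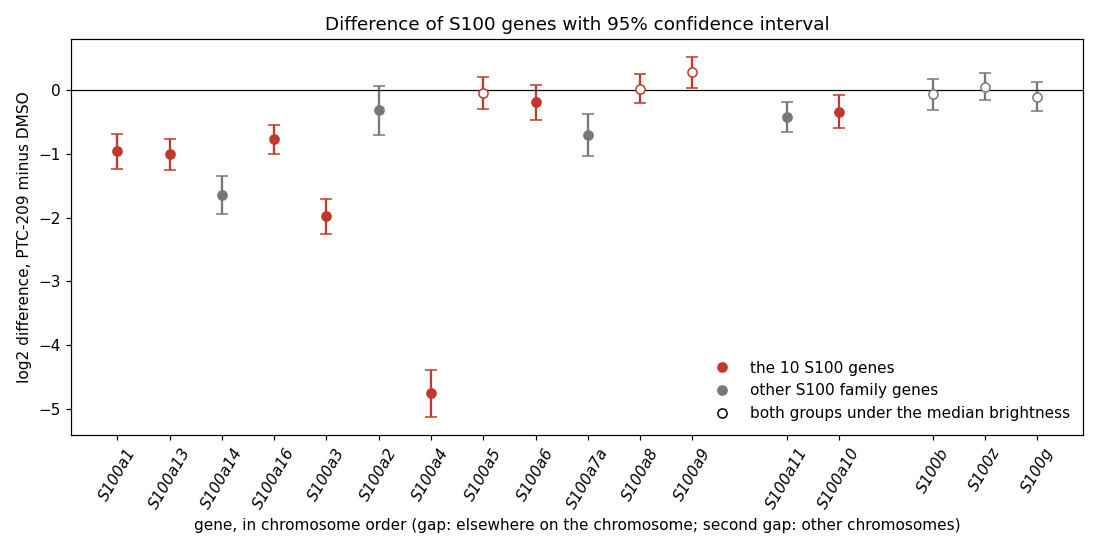
Log2 difference, PTC-209 minus DMSO (vertical axis), of the 17 measured S100 family genes in chromosome order, with 95% confidence intervals. Red marks the 10 genes described, grey the other family genes, and open circles those under the median brightness in both groups. S100a4 stands at -4.75, next to S100a5 at -0.04 and 2 places from S100a6 at -0.19.

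The genes whose values over the 6 arrays, centred on their own mean, lay nearest to those of S100a4 were Cxcl5, Ccl2, Trgv1, Plac8 and Muc1. The Euclidean distances were 0.51, 0.74, 1.06, 1.09 and 1.13 on the log2 scale. With PTC-209, Trgv1 (2.57 ± 0.23) and Muc1 (3.55 ± 0.61) lay under the median brightness of 4.33, so the size of their falls is uncertain. Cxcl5, a neutrophil chemokine, read 5.44 ± 0.026 with PTC-209 and 10.40 ± 0.16 with DMSO, and Ccl2, a monocyte chemokine, read 4.73 ± 0.094 with PTC-209 and 9.07 ± 0.11 with DMSO. With 6 arrays in 2 groups, a short distance says mainly that the differences were of like size. None of the other S100 genes was among these 5. That follows from size, since the largest fall of another S100 gene, S100a3, was -1.98. The 5 genes nearest to S100a9, the S100 gene with the most positive difference, were Cd247, Epn2, Mrpl14, Olfr1095 and Cryz, at distances of 0.05 to 0.09, with differences of 0.26 to 0.33. Of these only Epn2 passed the threshold (limma adjusted p = 0.0493), and 10 of 16 alternatives ended its call.

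**Figure D3:**
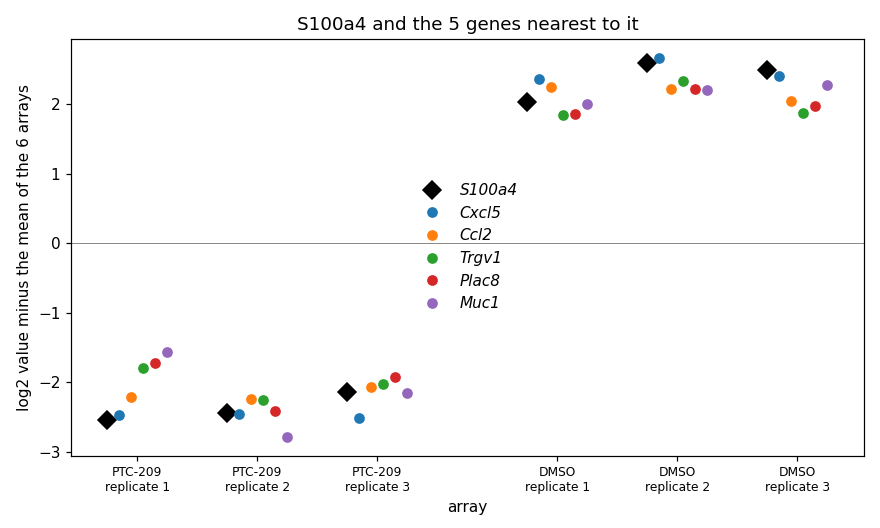
Log2 value minus the mean of the 6 arrays (vertical axis) for S100a4 (black diamonds) and the 5 genes nearest to it (circles) on each PTC-209 and DMSO array. All 6 genes lie under 0 on every PTC-209 array and above 0 on every DMSO array.

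Among 13 measured intracellular partners of S100 proteins, 5 fell and 3 rose, with a median log2 difference of 0.04, against 13.7% lower and 12.9% higher over all named genes. Of the 19937 named genes, 8888 were under the median brightness in both groups, against 0 of these 13. The shares over all named genes are thus not matched for brightness, here or in the other lists. Anxa1, the annexin that S100a11 binds, was lower, at 9.80 with PTC-209 and 10.89 with DMSO (-1.09, limma adjusted p = 0.000226). Also lower were S100pbp, a nuclear S100-binding protein (-0.84), Anxa6 (-0.64), Ahnak (-0.40) and Anxa2. Anxa6 gave -0.31 (limma adjusted p = 0.0401) when the mean of its probe sets was taken. The call of Ahnak, a scaffold that S100A10 binds, was lost under 7 of 16 alternatives, 5 of them with an array left out. Myh9, the myosin heavy chain that S100a4 binds, was higher, at 8.79 with PTC-209 and 8.17 with DMSO (0.62, limma adjusted p = 0.00633). That call was lost when the mean of all probe sets of Myh9 was taken (0.34) or a fold above 1.2 was required. Anxa11 (0.89) and the ubiquitin ligase Mdm2 (0.56) were higher too, Mdm2 not when a fold above 1.2 was required. Cacybp, the partner of S100a6, gave 0.24 (limma adjusted p = 0.109).

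Of 8 receptors for secreted S100 proteins, 3 fell and 2 rose, where 13.7% of all named genes were lower and 12.9% higher. Mcam read 4.76 with PTC-209 and 5.86 with DMSO (-1.10, limma adjusted p = 0.000256), and the adhesion proteins Emb (-0.75) and Alcam (-0.47) were lower as well. Tlr4, the lipopolysaccharide receptor to which S100A8 and S100A9 bind, rose by 0.39 (limma adjusted p = 0.0471), and so did Bsg (0.39, limma adjusted p = 0.0257), but 9 of 16 alternatives ended the call of Tlr4 and 8 that of Bsg, with leaving out any array but DMSO replicate 1 among them for both. Ager, the gene of RAGE, gave 0.14 and did not pass. Il1a, the cytokine that S100a13 helps to export, rose 1.59 on the log2 scale, with 8.09 in PTC-209 cells and 6.50 in DMSO cells (limma adjusted p = 5.36e-06), while Fgf1 and Syt1 were dim.

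The calcium binders outside the family gave a mixed picture. Of 34 measured EF-hand genes, 9 fell and 6 rose, with a median of -0.06, against 13.7% lower and 12.9% higher over all named genes. Calu (-1.16) and Rcn1 (-1.05), calcium binders of the secretory pathway, the centrin Cetn3 (-0.92) and grancalcin, Gca (-0.85), were the lowest. Nucb1 (0.70), Efhd1 (0.69, from a dim signal), Pef1 (0.62) and the calcineurin subunit Ppp3r1 (0.50) were the highest. Among 6 S100-fused proteins of the skin barrier 0 passed in the limma fit, and at an unadjusted p under 0.05 the only member was Flg2, at 2.20 with PTC-209 and 1.98 with DMSO.

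Of 14 reported transcriptional regulators of S100 genes, 7 rose and 2 fell, with a median of 0.28, against 12.9% higher and 13.7% lower over all named genes. The 14 include beta-catenin, Ctnnb1, and Cebpa, which is knocked out in both groups. Hif1a (0.80), Stat3 (0.75), Jun (0.70) and Cebpb (0.67) led the rises. The falls were Cebpd (-0.81) and Tcf7l2 (-0.65), which pairs with beta-catenin in Wnt signalling. Cebpd read 4.78 with DMSO and 3.97 with PTC-209, the latter under the median brightness. Of 12 genes of mesenchymal transition, in which S100A4 is often counted, 2 rose and 1 fell (all named genes: 12.9% and 13.7%): Zeb2 (0.89), Snai2 (0.73) and Fn1 (-0.90). Vim, a bright gene of that list, gave -0.19 (limma adjusted p = 0.167). Over the distinct genes of these lists outside the S100 family, 21 of 90 rose and 20 fell, against backgrounds of 12.9% and 13.7%. Of the 90, 22 were under the median brightness in both groups, against 8888 of the 19937 named genes.

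**Figure D4:**
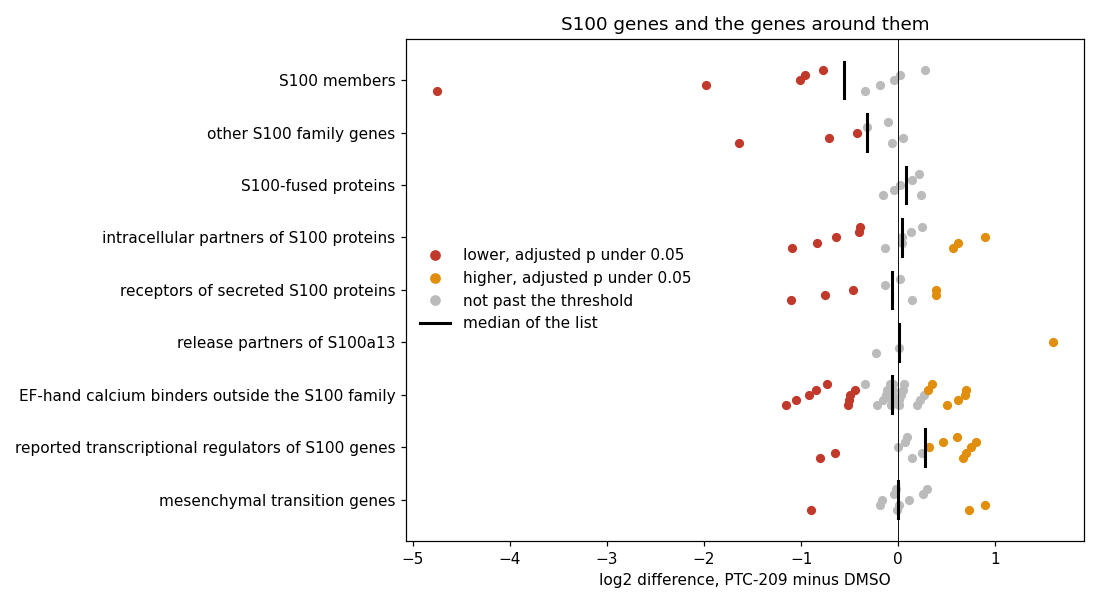
Log2 difference, PTC-209 minus DMSO (horizontal axis), of each measured gene in the S100 group and in the related lists (rows), with the list's median as a black bar. The 10 S100 genes have a median of -0.56, and the other lists outside the family have medians between -0.06 and 0.28.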

How the data were processed

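Per the labels' protocols, the arrays are Affymetrix ones read from Trizol-extracted total RNA with a biotin label. The deposited table holds log2 expression values that the authors made with RMA, per the submitters' processing notes (no version given). RMA gives the arrays nearly the same distribution, so a shift common to most genes is lost. Array medians were 4.07 to 4.14. A free-text label on embryo stages contradicts the titles and was not used.

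A block of 6568 probe sets was taken as controls from its runs of consecutive identifiers, not from a control label. None of the block carried a gene symbol. Leaving it out left 28192 probe sets. Of these, 21640 carry 1 gene symbol, 1321 several and 5231 none in the platform annotation, and those with several name no gene. Dim probe sets were kept. Of a gene's probe sets, the brightest over the 6 arrays was used. Differences were fitted with limma 3.58.1 in R 4.3.3 (treatment as the only term, eBayes, 5.27 prior and 4 residual degrees of freedom) and checked on simulated data. The number of arrays limits the precision.

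The members, lists and tests were chosen with earlier results of these data known. Named were the 10 genes, other family genes, up to 4 called genes per list and direction, and the 5 nearest patterns. Lists were described by counts, with no set test. Among the listed genes without a probe set of their own here were S100a7l2, Flg, Trp53, Nfkb1 and Tcf7.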

Additional observations from a re-analysis of the deposited data

How the results depend on the processing

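The 16 alternatives were another prior, leaving out dim probe sets, 3 further normalizations, array weights, the replicate block, a minimum fold of 1.2, the mean of a gene's probe sets, leaving out each array, and, chosen after seeing the data, keeping the control block. Of the 10 S100 genes, 7 kept their call under each alternative that gave a value. The rest, S100a6, S100a9 and S100a10, passed under some. The count of lower genes was 5 to 7 against 5, and 6 with the replicate block. The count of higher genes was 1 with array weights and 0 to 1 when an array was left out, against 0. Of the related genes, 9 were higher and 13 lower when a fold above 1.2 was required, against 21 and 20. None of the 58 genes recomputed reversed a call. Requiring a fold above 1.2 also ended the calls of Alcam, Efhd1, Ppp3r1 and Cebpb. Of the genes nearest to S100a9, Cd247, Mrpl14, Olfr1095 and Cryz passed under 2 to 4 alternatives. Same-numbered arrays deviated together with correlations of 0.231, 0.070 and 0.073, and not every array matched its own number best, so the numbers were not treated as pairs. Leaving out dim probe sets gave no value for S100a5, S100a8 and S100a9. The dim signals of these genes limit what could be seen, and the cause of the changed calls was not tested.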
